A study of Mus musculus with 15 samples.

Results

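The transcripts recovered with an antibody against 5-methylcytosine (m5C) from tail fibroblast lines of mice were compared with those recovered from cortex, within each Dnmt1 genotype. Of the 15 libraries of the series, 6 entered the comparison: 3 from fibroblasts (WT library 2, Het and Hom) and 3 from cortex (WT, Het and Hom), 1 library per genotype and tissue. Dnmt1 is the maintenance DNA methyltransferase, and the Het and Hom libraries of both tissues carry a mutation in it that the WT libraries lack. The fibroblast lines came from the tails of littermates of 1 sex, and were cultured in medium with serum, per the labels' protocols, while the labels give no ages and no sex for the cortex donors. They leave out whether both tissues of a genotype came from the same animal and how many animals or lines a library stands for, so the spread behind each p-value is one between libraries and may be technical. A further WT fibroblast library (WT library 1) was left out because none of its 31017 gene values lies below the Hom value.

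In m5C RNA immunoprecipitation (RIP), messenger RNA is purified, incubated with an antibody that binds 5-methylcytosine, and the RNA held by the antibody is sequenced. Fibroblasts are connective tissue cells that secrete collagens, elastic fibre proteins and the enzymes that crosslink and remodel them. Cortex holds glutamatergic and GABAergic neurons, rich in RNA for synaptic proteins and ion channels, together with astrocytes, oligodendrocytes, microglia and vessels. In bulk libraries, fewer cells of a type and less RNA per cell cannot be told apart, and with no input library per genotype neither can RNA abundance and recovery by the antibody.

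Gene counts were 1226969 (WT), 2163814 (Het) and 725824 (Hom) in fibroblasts, and 1310590 (WT), 1434653 (Het) and 2408694 (Hom) in cortex. Levels are given in CPM, with the counts of a library over all genes as the denominator, always in the order WT, Het, Hom. Log2 fold changes are fibroblast over cortex with their standard error (SE), fitted with genotype as a block. Log2 CPM of the genes tested correlated at 0.917 to 0.967 (Pearson's r, across genes, a description) between libraries of 1 tissue and at 0.344 to 0.394 between libraries of different tissues.

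The labelled tissues carried their defining markers, although the fibroblast libraries held brain transcripts as well. The summed level of 16 fibroblast markers was 32480.0, 29015 and 27256 CPM in fibroblasts and 623, 533 and 579.6 CPM in cortex, and that of 20 pan-neuronal genes was 1214, 1021 and 1288 CPM in fibroblasts and 8362, 8243 and 8304 CPM in cortex. Thy1, whose levels are given below, is a member of both lists and enters both sums. It makes up the larger part of the fibroblast marker sum in cortex, and a large part of the pan-neuronal sum in fibroblasts. The Y-linked genes Ddx3y, Eif2s3y, Uty and Kdm5d were read in all 6 libraries, and Xist had at most 10 counts in any of them. Brain genes were read in every fibroblast library, at a rather even share of their cortex level. Among 161 neuronal, synaptic, channel, astrocyte and myelin genes with at least 20 CPM in cortex, the median level was 11.3% of the cortex mean in the WT fibroblast library, 8.14% in Het and 13.3% in Hom. Between 5 and 25% of the cortex level were found for 143, 131 and 140 of the 161 genes in these libraries. Genes of neurons and glia shared this level: the medians in the WT, Het and Hom fibroblast libraries were 8.62, 6.92 and 11.99% for glutamatergic genes, and 12.8, 6.50 and 9.50% for myelin genes. In the other direction, 50 matrix genes with at least 20 CPM in fibroblasts had median levels of 2.31, 2.20 and 2.34% of the fibroblast mean in cortex, with a lower quartile of 0.393, 0.468 and 0.419%. What part the brain transcripts of the fibroblast libraries have in the fold changes below was not tested.

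**Figure D1:**
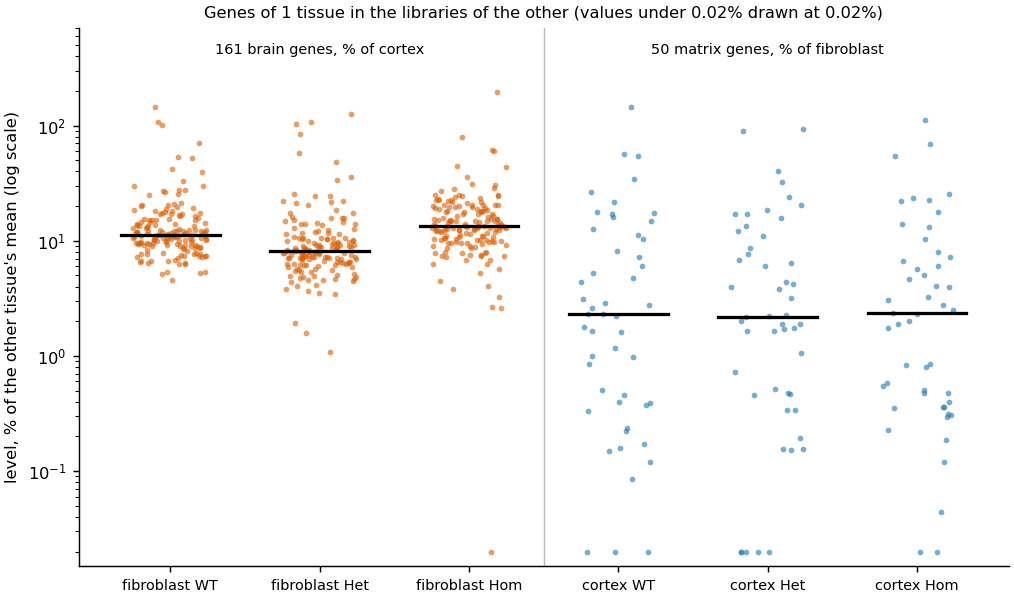
Level of 161 brain genes in each fibroblast library, as a percentage of their mean in cortex (left), and of 50 matrix genes in each cortex library, as a percentage of their mean in fibroblasts (right). Each point is 1 gene on a log scale, the bars are medians, and values under 0.02% are drawn at 0.02%. The brain genes gather around medians of 11.3, 8.14 and 13.3%, while the matrix genes spread over several orders of magnitude.

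The first question was how many transcripts separate the tissues. Of 12275 genes tested, 4211 (34.3%) were higher in fibroblasts and 4191 (34.1%) were lower, 68.4% in all, at an adjusted p under 0.05 (edgeR's quasi-likelihood test, Benjamini-Hochberg). The median log2 fold change of all genes tested was 0.01. All 3 fibroblast libraries lay above all 3 cortex libraries in 33.1% of the genes tested and below them in 39.9%, 73.0% in all. These shares are the baseline for the list counts and for the separation of single genes below. Among called genes, 4159 of those higher in fibroblasts and 4155 of those lower had the same sign within the WT, the Het and the Hom pair.

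The calls were balanced in number but not in size. A fitted difference of at least 4-fold was seen in 1876 genes in the direction of fibroblasts and in 1826 in the direction of cortex. At 16-fold or more the numbers were 622 and 31. Putting the 51 tested genes with 0 counts in all cortex libraries at a lower bound, against 3 counts per library, left 595 genes at least 16-fold higher in fibroblasts. Of 1881 genes averaging at least 100 CPM in fibroblasts, 266 were more than 16-fold higher there. Of 2271 genes averaging at least 100 CPM in cortex, 6 were more than 16-fold lower in fibroblasts.

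**Figure D2:**
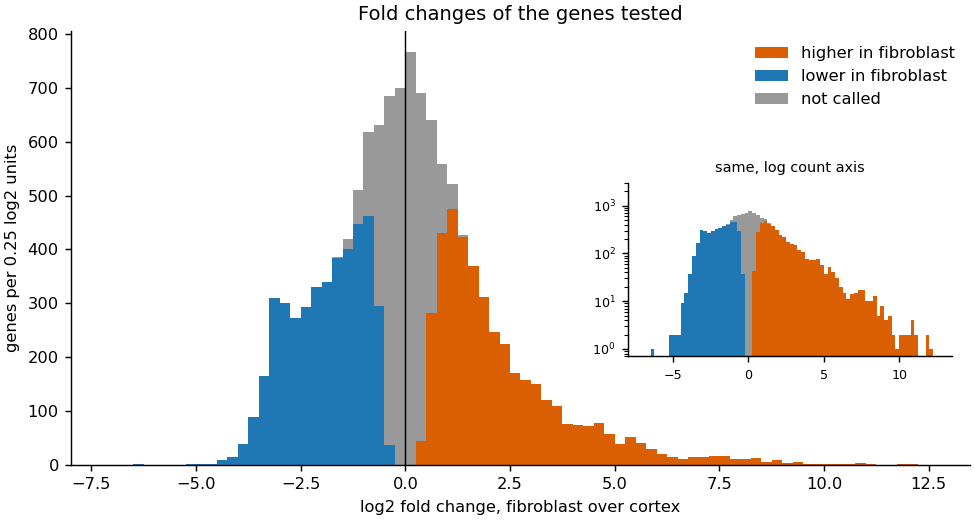
Number of genes by log2 fold change, fibroblast over cortex, for genes called higher (orange), called lower (blue) or not called (grey), with the same counts on a log axis in the inset. The right tail reaches 12.09, the fitted value of C5ar1, which had 0 cortex counts, whereas the lowest value on the left is -6.33, that of Bc1.

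Transcripts of secreted matrix, of the cytoskeleton and of ferritin were among the most abundant in the fibroblast libraries, together with Lars2 and genes with placeholder names. Col1a1, the alpha 1 chain of type I collagen (chromosome 11, 94936224 to 94953042, plus strand, mm10), reached 19388, 15365 and 16581 CPM in fibroblasts, against 40.4, 26.5 and 38.6 CPM in cortex (log2 fold change 9.08, SE 0.34, adjusted p = 3.50e-19). Bgn, the proteoglycan biglycan, had 9012, 7657 and 3731 CPM in fibroblasts and 10.7, 10.5 and 21.2 CPM in cortex (log2 fold change 8.86, SE 0.39, adjusted p = 6.16e-18). The log2 fold change was 9.47 without the cortex Hom library, which held 51 of its 80 cortex counts. Actb, cytoplasmic actin, had 8924, 7981 and 7995 CPM in fibroblasts and 1106, 851 and 946 CPM in cortex (log2 fold change 3.26, SE 0.24, adjusted p = 3.92e-13). Fth1, the ferritin heavy chain, had 7269, 6508 and 11388 CPM in fibroblasts and 551, 421 and 625 CPM in cortex (log2 fold change 4.11, SE 0.25, adjusted p = 8.14e-15). For each of these genes all 3 fibroblast libraries lay above all 3 cortex libraries, as in 33.1% of all genes tested. The Hom library was the lowest in fibroblasts for Bgn and the highest for Fth1.

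Noncoding RNAs and a transporter mRNA were among the abundant transcripts of cortex, where Gm26917, a gene with a placeholder name, had more counts than any of them. Malat1, a long noncoding RNA kept in the nucleus, had 4641, 4671 and 4552 CPM in fibroblasts and 16221, 21462 and 22393 CPM in cortex (log2 fold change -1.95, SE 0.25, adjusted p = 4.62e-08). Meg3, an imprinted noncoding RNA of brain, had 939, 672 and 803 CPM in fibroblasts and 5095, 5798 and 6409 CPM in cortex (log2 fold change -2.70, SE 0.23, adjusted p = 1.27e-11). Slc1a2, the glutamate transporter of astrocytes (chromosome 2, 102658659 to 102790784, plus strand), had 234, 158 and 258 CPM in fibroblasts and 2833, 3452 and 3330.4 CPM in cortex (log2 fold change -3.76, SE 0.23, adjusted p = 1.37e-14). Every cortex library lay above every fibroblast library for each of these transcripts, as in 39.9% of all genes tested.

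Lars2 and 3 genes with placeholder names also held many counts. Gm26917, on chromosome 17, had 17471, 10064 and 16716 CPM in fibroblasts and 48199, 36493 and 37128 CPM in cortex (log2 fold change -1.34, SE 0.26, adjusted p = 5.39e-05). Its neighbour Gm42418, whose span overlaps that of other annotated transcripts, had 9282, 6660.5 and 10504 CPM in fibroblasts and 7544, 5893 and 6659.6 CPM in cortex, with groups that overlap, and its adjusted p of 0.0415 did not pass in 10 of 18 alternatives. Lars2, annotated as the mitochondrial leucyl-tRNA synthetase, had 13727, 9627 and 19259 CPM in fibroblasts and 874, 331 and 376 CPM in cortex (log2 fold change 4.99, SE 0.31, adjusted p = 1.44e-14). In the fibroblast input library Lars2 held 19.4% of the counts and Gm42418 37.5%. Whether the reads counted for Lars2 come from its mRNA was not tested. Gm10800 had 10428, 13768 and 8750.1 CPM in fibroblasts and 4631, 409.9 and 544 CPM in cortex, and its log2 fold change of 3.64 ranged from 2.19 without the cortex Het library to 4.68 without the cortex WT library, where it was far higher than in the other 2. Together these 4 genes held 4.01 to 5.52% of the fibroblast counts and 4.31 to 6.12% of the cortex counts.

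Extracellular matrix genes were higher in fibroblasts by large factors. Of 10 fibrillar collagen genes tested, 8 were higher in fibroblasts, where 34.3% of all genes tested were, and none was lower (34.1% of all genes), with a median log2 fold change of 5.49 against 0.01 for all genes. Their summed level was 33058, 30954 and 28309.9 CPM in fibroblasts and 246, 226 and 220.0 CPM in cortex. Col1a2, the second chain of type I collagen, had 6495, 6249.6 and 5401 CPM in fibroblasts and 23.7, 31.4 and 28.6 CPM in cortex (log2 fold change 7.89, SE 0.29, adjusted p = 3.59e-19). Col3a1, type III collagen, had 2473, 3579 and 2567 CPM in fibroblasts and 11.4, 13.2 and 5.40 CPM in cortex (log2 fold change 8.38, SE 0.30, adjusted p = 2.24e-19). Col5a2, a type V chain that starts fibril assembly, had 1473, 1977 and 1035 CPM in fibroblasts and 6.87, 6.97 and 7.06 CPM in cortex (log2 fold change 7.79, SE 0.28, adjusted p = 3.08e-19). Each chain lay above cortex in all 3 fibroblast libraries, as did 33.1% of all genes tested. The 2 members that did not pass were Col11a2 and Col24a1, and Col2a1 of cartilage was too low to be tested.

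Elastic fibre genes, which encode elastin, its microfibrils and the enzymes that crosslink it, were higher in fibroblasts in 19 of 20 cases, with a median of 4.92. Lox, lysyl oxidase, which crosslinks collagen and elastin (chromosome 18, 52516067 to 52529867, minus strand), had 1936, 2449 and 1303 CPM in fibroblasts and 2.29, 0 and 0.830 CPM in cortex. The 3 cortex libraries held 5 Lox counts in all, and the log2 fold change of 10.87 (SE 0.38, adjusted p = 1.82e-19) was 11.78 without the cortex WT library, which held 3 of them. Loxl1, a related crosslinking enzyme, had 740.0, 752 and 547 CPM in fibroblasts and 1.53, 4.88 and 5.40 CPM in cortex (log2 fold change 7.41, SE 0.30, adjusted p = 1.01e-18). Fbln2, fibulin 2, had 1313, 1533 and 678 CPM in fibroblasts and 19.1, 19.5 and 9.96 CPM in cortex (log2 fold change 6.31, SE 0.25, adjusted p = 6.00e-19). Ltbp4, a latent TGF-beta binding protein, was the only member of this list that did not pass.

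Matricellular and remodelling genes gave 22 higher and 1 lower of 24 tested, with a median of 5.71. The shares were 91.7% higher and 4.17% lower, against 34.3 and 34.1% of all genes tested. Spp1, osteopontin, had 3188, 2961 and 3132 CPM in fibroblasts and 5.34, 10.5 and 9.13 CPM in cortex (log2 fold change 8.66, SE 0.30, adjusted p = 1.82e-19). Postn, periostin, had 1077, 1194 and 823 CPM in fibroblasts and 1.53, 4.88 and 1.25 CPM in cortex (log2 fold change 8.84, SE 0.31, adjusted p = 2.23e-19), and 9.61 without the cortex Het library. Thbs1, thrombospondin 1, had 3422, 3952 and 2326 CPM in fibroblasts and 12.2, 6.27 and 11.6 CPM in cortex (log2 fold change 8.38, SE 0.32, adjusted p = 4.31e-19). The exception was Timp4, a metalloproteinase inhibitor, with a log2 fold change of -2.58 (adjusted p = 3.79e-08), and whose position overlaps that of the synaptic gene Syn2. The Hom library had the lowest sum of this list among the fibroblast libraries, 29244, 30057 and 19652 CPM, and with 1 library per genotype that difference has no replicate check.

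Basement membrane genes were divided. Of 17 tested, 10 were higher in fibroblasts, 3 were lower and 4 did not pass. The shares were 58.8% higher and 17.6% lower, against 34.3 and 34.1% of all genes tested. Hspg2, perlecan, had 983, 1129 and 624 CPM in fibroblasts and 37.4, 44.6 and 53.6 CPM in cortex (log2 fold change 4.42, SE 0.24, adjusted p = 9.52e-16). Nid1, nidogen 1, had 335, 369.7 and 204 CPM in fibroblasts and 4.58, 10.5 and 17.9 CPM in cortex (log2 fold change 4.78, SE 0.30, adjusted p = 1.51e-14), and 5.46 without the cortex Hom library. The lower members were Agrn, whose product also organises synapses, and the laminin chains Lama2 and Lama3, with log2 fold changes of -2.02, -0.83 and -1.35. Lama2 did not pass without the fibroblast WT library (adjusted p = 0.143), the fibroblast Hom library (0.0805) or the cortex Het library (0.155). Lama3 did not pass without the fibroblast Het library (adjusted p = 0.117) or the cortex WT library (0.0837).

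Most contractile and adhesion genes were higher in fibroblasts. In the contractile list, 17 of 19 were higher and Myh11, the smooth muscle myosin heavy chain, was lower, at -1.98. The share higher was 89.5%, against 34.3% of all genes tested. Acta2, the actin of smooth muscle and myofibroblasts, had 905, 1082 and 359.6 CPM in fibroblasts and 21.4, 15.3 and 17.4 CPM in cortex (log2 fold change 5.41, SE 0.27, adjusted p = 1.36e-16). Tpm2, a tropomyosin, had 404, 332 and 190.1 CPM in fibroblasts and 9.16, 5.58 and 9.96 CPM in cortex (log2 fold change 5.23, SE 0.27, adjusted p = 2.38e-16). Of 14 adhesion receptors of mesenchyme, 10 were higher (71.4%) and 1, Mcam, was lower. Cd44, the hyaluronan receptor, had 306, 403 and 204 CPM in fibroblasts and 6.10, 5.58 and 10.8 CPM in cortex (log2 fold change 5.32, SE 0.28, adjusted p = 4.60e-16).

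**Figure D3:**
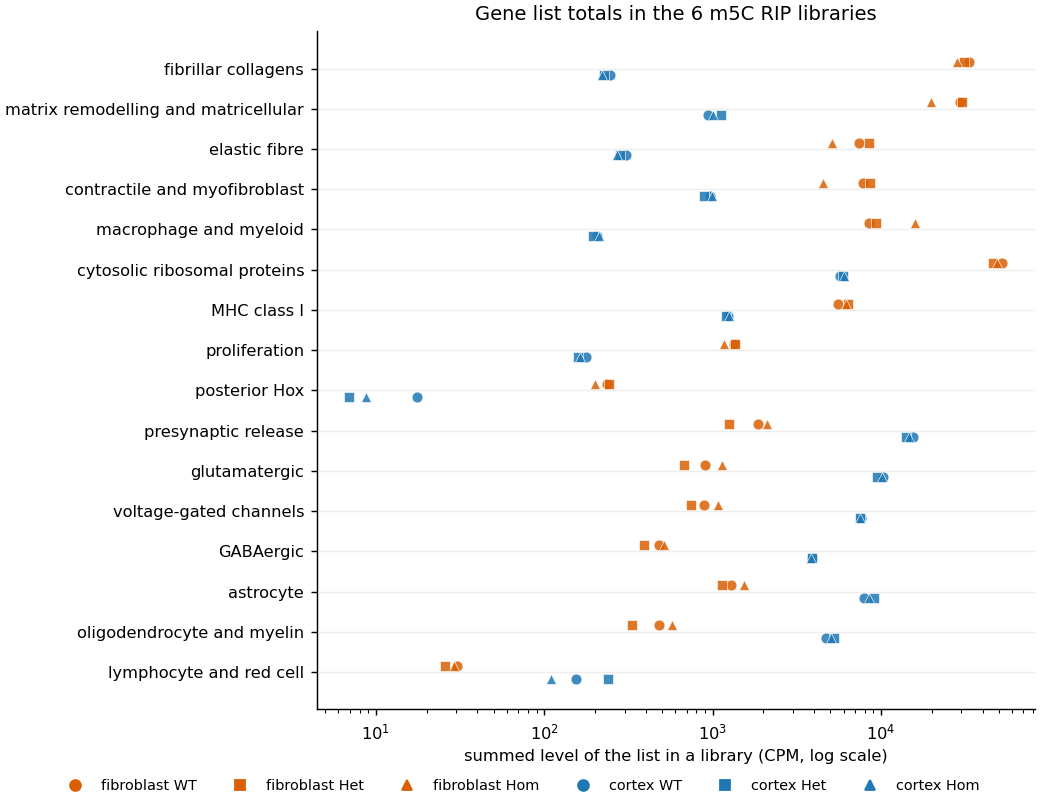
Summed level of each gene list (rows) in each of the 6 libraries, in CPM on a log axis, with fibroblasts in orange above cortex in blue and WT, Het and Hom as circles, squares and triangles. The tissues do not overlap in any list drawn, and fibroblast libraries hold 33058, 30954 and 28309.9 CPM of fibrillar collagens against 246, 226 and 220.0 CPM in cortex.

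Macrophage transcripts were far higher in the fibroblast libraries too. Of 19 macrophage and myeloid genes tested, 17 were higher in fibroblasts and none was lower (median 5.42), the summed level being 8466, 9284 and 15805 CPM in fibroblasts and 207, 194 and 210.5 CPM in cortex. The share higher was 89.5%, against 34.3% of all genes tested. Lyz2, the lysozyme of macrophages (chromosome 10, 117277331 to 117282321, minus strand), had 3803, 4113 and 7427 CPM in fibroblasts and 4.58, 1.39 and 3.32 CPM in cortex (log2 fold change 10.86, SE 0.37, adjusted p = 1.82e-19). C1qa, a complement component made by macrophages, had 889, 814 and 1569 CPM in fibroblasts and 21.4, 18.8 and 16.2 CPM in cortex (log2 fold change 5.996, SE 0.26, adjusted p = 6.45e-18). Fcer1g, the shared signalling chain of Fc receptors, had 449, 437 and 686 CPM in fibroblasts and 4.58, 2.09 and 2.91 CPM in cortex (log2 fold change 7.55, SE 0.29, adjusted p = 5.38e-19). All 3 genes were highest in the fibroblast Hom library, the one with the lowest sums of fibrillar collagen, elastic fibre and matricellular genes, and with 1 library per genotype that has no replicate check. The label names fibroblasts only, and what part macrophages had in the tissue difference was not tested.

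Of the 12 named genes with the largest fitted differences, most were myeloid or inflammatory. These fitted values rest on few or no cortex counts, so that the order of these genes, and their rank against genes counted in both tissues such as Col1a1, is not established. C5ar1, the receptor of the complement fragment C5a (chromosome 7, 16246743 to 16259540, minus strand), had 272, 290.2 and 395 CPM in fibroblasts and 0 counts in all cortex libraries, and was at least 189-fold higher, taking 3 counts per cortex library as the bound. Il1rl1, the receptor of interleukin 33, had 454, 397 and 132 CPM in fibroblasts and 0 counts in cortex (at least 195-fold higher). The chemokines Ccl7, Ccl4 and Cxcl2, all at 0 in cortex, were at least 167-fold, at least 95.1-fold and at least 78.4-fold higher. Clec4d, a lectin receptor of myeloid cells, had 159.7, 128 and 236 CPM in fibroblasts and 0 counts in cortex (at least 103-fold higher). Tnf, tumour necrosis factor, had 60.3, 61.5 and 198 CPM in fibroblasts and 0 counts in cortex (at least 62.9-fold higher). Lgals3, galectin 3, had 399, 453 and 459 CPM in fibroblasts and 1 count in all of cortex, a ratio of 2502 (95% exact counting interval 448 to 98879). The stress cytokine Gdf15 and the stromelysin Mmp3, at 0 in cortex, were at least 65.2-fold and at least 61.4-fold higher, and Lox and Lyz2 completed the 12. Their fold changes are limited by the cortex depth, since 3 counts stand for 1.25 to 2.29 CPM there.

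Promoters were examined for CpG dinucleotides, the sites that Dnmt1 keeps methylated in DNA. The windows below run from 250 bases before to 50 bases after the transcription start (RefSeq, GRCm38.p6), with CpG in capitals. Among the 12 genes with the largest differences in each direction, 7 per direction with a single listed start were considered, and the windows with the fewest and the most CpG are shown. Clec4d (chr6:123261857-123262156, plus strand) and Lgals3 (chr14:47373610-47373909, plus strand) are from the fibroblast side, with 0 and 18 CpG. Hba-a1 (chr11:32283422-32283721, plus strand) and Diras1 (chr10:81025328-81025627, minus strand) are from the cortex side, with 4 and 30 CpG.
Clec4d: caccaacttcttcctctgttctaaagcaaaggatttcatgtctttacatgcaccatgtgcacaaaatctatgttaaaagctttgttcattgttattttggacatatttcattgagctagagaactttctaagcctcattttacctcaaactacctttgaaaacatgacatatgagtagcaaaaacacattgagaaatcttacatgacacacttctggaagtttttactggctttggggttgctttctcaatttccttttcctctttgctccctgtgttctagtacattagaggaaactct
Lgals3: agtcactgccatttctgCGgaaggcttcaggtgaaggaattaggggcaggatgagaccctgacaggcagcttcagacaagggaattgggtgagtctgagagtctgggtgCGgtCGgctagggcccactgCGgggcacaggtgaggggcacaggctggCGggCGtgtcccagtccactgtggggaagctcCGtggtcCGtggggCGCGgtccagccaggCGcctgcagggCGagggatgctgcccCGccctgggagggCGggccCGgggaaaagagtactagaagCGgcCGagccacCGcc
Hba-a1: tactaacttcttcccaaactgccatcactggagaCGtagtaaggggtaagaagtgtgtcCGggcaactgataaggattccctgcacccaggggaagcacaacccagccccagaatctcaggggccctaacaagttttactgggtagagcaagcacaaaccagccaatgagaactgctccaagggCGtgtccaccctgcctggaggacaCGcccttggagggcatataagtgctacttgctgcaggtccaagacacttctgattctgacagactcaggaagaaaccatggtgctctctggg
Diras1: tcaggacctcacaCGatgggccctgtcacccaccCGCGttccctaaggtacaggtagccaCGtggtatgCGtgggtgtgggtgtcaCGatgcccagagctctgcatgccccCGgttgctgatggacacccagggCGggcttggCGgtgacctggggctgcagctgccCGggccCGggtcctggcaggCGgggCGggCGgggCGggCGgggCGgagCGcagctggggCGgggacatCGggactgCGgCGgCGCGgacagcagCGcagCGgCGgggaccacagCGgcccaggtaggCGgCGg
Windows were found for 9532 of the 12275 genes tested, 1 start per gene being used. The median number of CpG was 6 in 124 genes fitted at least 64-fold higher in fibroblasts, 11 in 462 genes at least 16-fold higher, 16 in 447 genes at least 8-fold lower and 21 in all tested genes. Over all 27025 genes with a window, most of which were not tested, it was 7, close to that of the genes at least 64-fold higher. It was 3 in 13 macrophage genes and 10 in 38 matrix genes, against 17.5 in 86 neuronal and synaptic genes. The letters TATAAA, on either strand, occurred in 20.97% of the windows at least 64-fold higher, in 6.58% of the windows of tested genes and in 14.2% of all genes with a window. The letters TGANTCA occurred in 11.3, 4.71 and 7.93% of these sets, and no test was made of these shares.

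The Hox genes that could be tested were all higher in fibroblasts, which came from tails. Hox genes keep the position along the body axis at which a cell arose, and paralog groups 9 to 13 mark its posterior end. All 9 posterior Hox genes that passed the filter, of 16 listed, were higher in fibroblasts, at a summed 236, 241 and 201 CPM in fibroblasts and 17.5, 6.97 and 8.72 CPM in cortex for the whole list. Because a gene silent in cortex can pass only through its fibroblast level, that count is a description. The fitted median was 5.36, and 4.56 with the 3 members at 0 in cortex placed at their lower bound. Hoxb13 had 23.6, 37.4 and 23.4 CPM in fibroblasts and 0 counts in cortex (at least 16.7-fold higher). Hoxb9 and Hoxc12, at 0 in cortex too, were at least 23.7-fold and at least 13.1-fold higher. Hoxc13 had 43.2, 35.1 and 23.4 CPM in fibroblasts and 0, 2.79 and 0 CPM in cortex, all its cortex counts lying in the Het library. Their levels are low: of the 9 genes, 1 was called when at least 20 counts were required in each library of a tissue, and 5 after thinning to equal depth. Of 23 anterior and middle Hox genes, the 3 that passed the filter (Hoxb4, Hoxb7 and Hoxb8) were higher in fibroblasts too, at a summed 115, 109 and 102 CPM in fibroblasts and 31.3, 15.3 and 10.8 CPM in cortex.

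Genes of dividing cells separated the cultures from the tissue. Of 28 proliferation genes tested, 27 were higher in fibroblasts and none was lower (median 3.76), with summed levels of 1333, 1364 and 1168 CPM in fibroblasts and 176, 159.6 and 162 CPM in cortex. The share higher was 96.4%, against 34.3% of all genes tested. A member with few cortex counts, such as Cdk1 below, could pass the filter only through its fibroblast level. Top2a, topoisomerase 2 alpha, had 100.2, 101 and 84.04 CPM in fibroblasts and 0.763, 4.18 and 1.66 CPM in cortex (log2 fold change 5.54, SE 0.36, adjusted p = 5.24e-14), and 6.19 without the cortex Het library. Cdk1, the mitotic kinase, had 82.3, 69.8 and 77.2 CPM in fibroblasts and 1 count in all of cortex, a ratio of 427 (95% exact counting interval 76.1 to 16936). Mcm6, a subunit of the replicative helicase, had 48.1, 65.6 and 70.3 CPM in fibroblasts and 2.29, 2.09 and 1.66 CPM in cortex (log2 fold change 5.08, SE 0.40, adjusted p = 2.83e-12). Under the stricter count filter 16 members were called higher.

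Targets of p53 and genes of antigen presentation were also higher in fibroblasts. Of 15 p53 targets, 12 were higher (80.0%, against 34.3% of all genes tested) and 1, Plk2, was lower. Cdkn1a, the cell cycle inhibitor p21, had 291, 333 and 254 CPM in fibroblasts and 32.05, 32.8 and 17.4 CPM in cortex (log2 fold change 3.61, SE 0.21, adjusted p = 5.29e-15). Of 14 MHC class I genes, 13 were higher (92.9%, median 3.22), with Canx not passing. B2m, beta 2 microglobulin, had 685, 972 and 1014 CPM in fibroblasts and 36.6, 38.3 and 44.01 CPM in cortex (log2 fold change 4.63, SE 0.22, adjusted p = 3.49e-17). H2-K1, a classical class I chain, had 386, 385 and 675 CPM in fibroblasts and 17.5, 22.3 and 29.9 CPM in cortex (log2 fold change 4.51, SE 0.22, adjusted p = 5.49e-17), although reads may be shared among these similar genes.

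All 76 cytosolic ribosomal protein genes were higher in fibroblasts. Ribosomal protein mRNAs are short, abundant and begin with a run of pyrimidines through which growth signals control their translation. Their summed level was 52189, 46107 and 48531 CPM in fibroblasts and 5676, 5947 and 5999 CPM in cortex, with a median log2 fold change of 3.13 and pair medians of 3.24, 3.13 and 2.99 in WT, Het and Hom. The fold changes ranged from 0.80 to 4.97. Rps27 had 489.8, 439.5 and 598 CPM in fibroblasts and 17.5, 18.1 and 22.8 CPM in cortex (log2 fold change 4.85, SE 0.22, adjusted p = 1.50e-17). Rps13 had 736, 543 and 588 CPM in fibroblasts and 19.1, 24.4 and 21.6 CPM in cortex (log2 fold change 4.97, SE 0.23, adjusted p = 1.86e-17). Rplp2 had 915, 805 and 937 CPM in fibroblasts and 54.9, 40.4 and 34.04 CPM in cortex (log2 fold change 4.54, SE 0.22, adjusted p = 6.70e-17). Ribosomal protein genes have many processed pseudogenes, so the authors' counting may have lost or split some of their reads.

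The starts of the 6 ribosomal protein genes with the smallest p among those with a usable RefSeq window are shown, from 30 bases before to 20 bases after the listed start (GRCm38.p6), because these genes moved together. The longest run of C or T within 5 bases of the start is in capitals. The positions are chr3:90213629-90213678, minus strand (Rps27), chr7:116334171-116334220, minus strand (Rps13), chr10:128626487-128626536, minus strand (Rps26), chr7:141447621-141447670, plus strand (Rplp2), chr5:115559437-115559486, plus strand (Rplp0) and chr17:33955646-33955695, minus strand (Rps18).
Rps27: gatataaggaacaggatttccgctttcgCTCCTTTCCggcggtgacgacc
Rps13: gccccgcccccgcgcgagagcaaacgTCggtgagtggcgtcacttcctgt
Rps26: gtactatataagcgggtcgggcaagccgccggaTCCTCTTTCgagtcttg
Rplp2: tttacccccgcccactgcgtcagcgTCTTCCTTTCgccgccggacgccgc
Rplp0: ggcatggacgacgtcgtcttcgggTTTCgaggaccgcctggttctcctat
Rps18: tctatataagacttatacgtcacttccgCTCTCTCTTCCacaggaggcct
The runs held 9, 2, 9, 10, 4 and 11 bases. The median run was 5 bases in ribosomal protein windows and 3 in those of all tested genes. Whether the listed starts are the ones used in these cells was not tested. A run of at least 7 was found in 23 of 56 ribosomal protein windows (41.1%), in 13.7% of windows of tested genes and in 14.05% of all windows. Genes called higher and lower in fibroblasts held such a run in 13.97 and 14.1% of windows.

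Neuronal transcripts were lower in fibroblasts, with medians from -2.15 to -3.23 over the 8 lists. Among all genes tested 34.1% were lower. Pan-neuronal genes were lower in 19 of 20 cases (median -3.06), the exception being Thy1, a surface protein that fibroblasts carry as well, with 353, 444 and 279.7 CPM in fibroblasts and 388, 291 and 373 CPM in cortex. Snap25, the neuronal SNARE of synaptic vesicle fusion (chromosome 2, 136713453 to 136782428, plus strand), had 155, 87.8 and 186 CPM in fibroblasts and 1725, 1973 and 1982 CPM in cortex (log2 fold change -3.64, SE 0.23, adjusted p = 2.60e-14). Map2, which binds dendritic microtubules, had 110.0, 77.2 and 179 CPM in fibroblasts and 1460.4, 1433 and 1445 CPM in cortex (log2 fold change -3.51, SE 0.23, adjusted p = 3.73e-14). Rbfox3, the splicing factor known as NeuN, had 26.9, 17.1 and 34.4 CPM in fibroblasts and 292, 249 and 296 CPM in cortex (log2 fold change -3.33, SE 0.22, adjusted p = 5.25e-14). No fibroblast library reached any cortex library in Snap25, Map2 and Rbfox3, as in 39.9% of all genes tested.

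Genes of excitatory and of inhibitory neurons were both lower in fibroblasts. Glutamatergic genes were lower in 19 of 19 cases (median -3.23) and GABAergic genes in 21 of 23 (median -3.12). Grin2b, an NMDA receptor subunit, had 81.5, 61.5 and 101 CPM in fibroblasts and 1158, 1288 and 1370.5 CPM in cortex (log2 fold change -3.85, SE 0.22, adjusted p = 1.63e-15). Gria2, an AMPA receptor subunit, had 55.4, 39.7 and 56.5 CPM in fibroblasts and 662, 822 and 815 CPM in cortex (log2 fold change -3.79, SE 0.22, adjusted p = 2.57e-15). Gabbr1 and Gabbr2 encode the subunits of the GABA-B receptor. Gabbr2 had 45.6, 25.4 and 45.5 CPM in fibroblasts and 419, 296 and 340.0 CPM in cortex (log2 fold change -3.08, SE 0.21, adjusted p = 8.92e-14), and Gabbr1 had 104, 102 and 125 CPM in fibroblasts and 848, 862 and 865 CPM in cortex (log2 fold change -2.81, SE 0.20, adjusted p = 1.65e-13). All cortex libraries lay above all fibroblast libraries for the 4 genes, as in 39.9% of all genes tested. Npy, neuropeptide Y, and Lhx6, an interneuron transcription factor, did not pass, and Vip, Dlx2, Dlx5 and Dlx6 were too low to be tested.

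Synaptic and channel genes were lower in fibroblasts without exception. All 24 presynaptic release genes, all 20 postsynaptic scaffold genes and all 26 voltage-gated channel genes passed in that direction, with medians of -3.16, -2.85 and -3.07. Syt1, the calcium sensor of transmitter release, had 71.7, 62.4 and 95.1 CPM in fibroblasts and 1113, 1082 and 1069 CPM in cortex (log2 fold change -3.71, SE 0.21, adjusted p = 2.51e-15). Shank1, a scaffold of excitatory synapses, had 187, 107 and 158 CPM in fibroblasts and 1873, 1336 and 1361 CPM in cortex (log2 fold change -3.21, SE 0.21, adjusted p = 3.56e-14). Scn8a, a voltage-gated sodium channel, had 44.8, 46.7 and 67.5 CPM in fibroblasts and 617, 586 and 661 CPM in cortex (log2 fold change -3.43, SE 0.21, adjusted p = 7.67e-15). Within the WT, Het and Hom pairs the presynaptic medians were -3.12, -3.40 and -2.72. The largest of these medians in size was that of the Het pair.

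Transcription factors and RNA-binding proteins of neurons had smaller medians. Of 22 cortical layer transcription factors, 19 were lower (median -2.15) and Foxp1, Foxp2 and Emx2 did not pass. Pou3f3, a POU domain factor, had 19.6, 11.1 and 24.8 CPM in fibroblasts and 209, 204 and 212 CPM in cortex (log2 fold change -3.45, SE 0.24, adjusted p = 1.74e-13). Of 25 neuronal RNA-binding proteins, 24 were lower (median -2.32), with Fmr1 not passing. Rbfox1, a splicing factor, had 26.9, 23.6 and 24.8 CPM in fibroblasts and 336, 326 and 387 CPM in cortex (log2 fold change -3.63, SE 0.21, adjusted p = 5.76e-15).

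Glial genes were lower in fibroblasts too, apart from those of microglia. Astrocyte genes were lower in fibroblasts in 14 of 16 cases (median -3.02), with Gja1 and Sox9, which mesenchymal cells use too, not passing. Slc1a3, a glutamate transporter of astrocytes, had 38.3, 26.8 and 42.7 CPM in fibroblasts and 328, 329.7 and 330.1 CPM in cortex (log2 fold change -3.09, SE 0.21, adjusted p = 1.08e-13). Oligodendrocyte and myelin genes were lower in 17 of 18 (median -3.26), transferrin (Trf) not passing. Mobp, a myelin protein, had 43.2, 33.3 and 50.98 CPM in fibroblasts and 740.1, 865 and 812 CPM in cortex (log2 fold change -4.13, SE 0.22, adjusted p = 5.06e-16). Of 10 oligodendrocyte precursor genes, 7 were lower, while Pdgfra and Vcan, which fibroblasts also express, were higher at 0.50 and 2.01. Pdgfra did not pass without the fibroblast WT (adjusted p = 0.0545), the fibroblast Het (0.0702) or the cortex Hom library (0.235).

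Microglial genes were divided, with a list median of 1.94, against 5.42 for macrophage genes. Of 8 tested, 5 were higher in fibroblasts (among them Cx3cr1, Tmem119, Olfml3 and Trem2) and 1, Sall1, was lower. The shares were 62.5% higher and 12.5% lower, against 34.3 and 34.1% of all genes tested. The list median was 0.86 with no filter on low counts and 2.84 after thinning to equal depth. Trem2, a lipid receptor shared by microglia and other macrophages, had 139, 159 and 302 CPM in fibroblasts and 9.92, 9.76 and 7.06 CPM in cortex (log2 fold change 4.65, SE 0.28, adjusted p = 6.08e-15). Cx3cr1, the fractalkine receptor, had 319, 232 and 171 CPM in fibroblasts and 18.3, 31.4 and 33.2 CPM in cortex (log2 fold change 3.20, SE 0.25, adjusted p = 1.41e-12). Sall1, a transcription factor of microglia that neural progenitors express too, stood at -3.04 (adjusted p = 8.19e-06), at -3.80 without the fibroblast WT library and at -2.39 without the fibroblast Het library, and the microglial receptors P2ry12 and P2ry13 did not pass.

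Vascular, choroid and blood genes were mixed or low. Of 12 endothelial genes, 6 were lower in fibroblasts (50.0%, against 34.1% of all genes tested), Ly6c1 was higher and 5 did not pass. Flt1, a VEGF receptor, had 16.3, 23.1 and 30.3 CPM in fibroblasts and 98.4, 98.98 and 101 CPM in cortex (log2 fold change -1.98, SE 0.25, adjusted p = 3.51e-08). Of 7 pericyte and mural genes, 2 were higher (Pdgfrb and Anpep) and 3 lower (Rgs5, Vtn and Notch3). These shares (28.6% higher and 42.9% lower) are near those of all genes tested (34.3 and 34.1%). Ttr, transthyretin of the choroid plexus, had 32.6, 25.9 and 34.4 CPM in fibroblasts and 219.7, 215 and 279 CPM in cortex (log2 fold change -2.79, SE 0.21, adjusted p = 7.78e-13). Haemoglobin genes mark blood left in tissue, and Hba-a1 had 2.45, 0.924 and 4.13 CPM in fibroblasts and 70.2, 78.8 and 32.8 CPM in cortex (log2 fold change -4.78, SE 0.47, adjusted p = 2.33e-10), or -4.02 without the fibroblast Het library. Of the cells that skin and tail could add, Dsp alone of 15 keratinocyte genes and Ttn alone of 15 skeletal muscle genes passed the filter on low counts, while among 9 adipocyte genes Lpl and Fabp4 did and were higher in fibroblasts. Of 4 cartilage and bone genes tested, of 10 listed, Comp was higher and Acan lower, although Acan lost its call without the cortex WT library (log2 fold change -1.41, adjusted p = 0.0579) and without both WT libraries (-1.53, adjusted p = 0.151). Of 4 Schwann cell and melanocyte genes tested, of 11 listed, Pmp22 and Egr2 were higher and Sox10 lower.

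The 12 named genes with the largest fitted differences towards cortex included noncoding, myelin and blood transcripts. Bc1, a short noncoding RNA of dendrites (chromosome 7, 144914470 to 144914637, plus strand), had 3.26, 1.85 and 4.13 CPM in fibroblasts and 397, 119 and 379 CPM in cortex (log2 fold change -6.33, SE 0.30, adjusted p = 4.14e-17), and -7.02 without the cortex Het library, the lowest of the 3. Diras1, a small GTPase, had 7.34, 3.24 and 4.13 CPM in fibroblasts and 135, 119 and 113 CPM in cortex (log2 fold change -4.53, SE 0.31, adjusted p = 1.25e-13). Gpr37l1, a receptor of astrocytes, had 2.45, 5.08 and 5.51 CPM in fibroblasts and 94.6, 98.3 and 98.8 CPM in cortex (log2 fold change -4.31, SE 0.33, adjusted p = 1.21e-12). Tceal6 had 3.26, 1.85 and 0 CPM in fibroblasts and 49.6, 41.8 and 56.9 CPM in cortex (log2 fold change -4.41, SE 0.47, adjusted p = 1.39e-09). The others were Pcdha9, Opalin, Hba-a1, Fam205c, Rprml, Gjb1, Omg and Gng4. They had from 1 (Pcdha9 and Opalin) to 10 counts (Gng4) in all fibroblast libraries together and from 50 (Opalin) to 284 (Hba-a1) in cortex. With so few counts their fitted values are not given here, apart from that of Hba-a1, and Pcdha9 shares exons with the other alpha protocadherins. Bc1 was read in fibroblasts at 1.03% of its cortex level and Gpr37l1 at 4.47%.

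Paralogs were compared to show which member of a family each tissue yields. In 35 pairs with both genes tested, each made of a widespread and a neural member, the neural member was lower in fibroblasts in 31 pairs (34.1% of all genes tested were) and the widespread member was higher in 20 (34.3% of all genes). The pairs were chosen for expected expression in neural tissue, so the direction of the neural members is part of that choice. Both labels are relative within a pair, and neural does not mean confined to neurons. Per kilobase of exon, Hk1, labelled neural, made up 54.0 to 60.9% of its pair in fibroblasts. In 17 pairs the calls were opposite. The fold change of the widespread member exceeded that of the neural one in 33 pairs, with a median difference of 3.22 log2 units.

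Among metabolic enzymes, lactate dehydrogenase had log2 fold changes of 2.46 (SE 0.19) for Ldha and -2.90 (SE 0.20) for Ldhb. Per kilobase of exon, Ldhb made up 9.80 to 13.01% of the pair in fibroblasts and 82.3 to 85.5% in cortex. Enolase had 1.04 (SE 0.18) for Eno1 and -2.92 (SE 0.21) for Eno2, and aldolase 0.33 (SE 0.19) for Aldoa and -3.10 (SE 0.22) for Aldoc, where Aldoa itself did not pass. In hexokinase the fold changes were 3.21 (SE 0.29) for Hk2 and -0.96 (SE 0.18) for Hk1. The glycolysis list as a whole summed to 7149, 7251 and 6682 CPM in fibroblasts and 6721, 6735 and 6642 CPM in cortex, with 8 genes higher, 7 lower and 6 not passing, shares (38.1% higher and 33.3% lower) close to those of all genes tested (34.3 and 34.1%).

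Cytoskeletal, trafficking and translation genes gave pairs of opposite direction as well. Beta tubulin had log2 fold changes of 3.61 (SE 0.30) for Tubb6 and -2.57 (SE 0.20) for Tubb3. The elongation factors had 2.54 (SE 0.22) for Eef1a1 and -3.39 (SE 0.21) for Eef1a2, and Eef1a2 made up 1.28 to 2.57% of the pair per kilobase in fibroblasts and 50.9 to 58.1% in cortex. The SNARE pair had 1.69 (SE 0.26) for Snap23 and -3.64 (SE 0.23) for Snap25, and the splicing repressors 1.50 (SE 0.25) for Ptbp1 and -1.66 (SE 0.26) for Ptbp2. The BAF chromatin remodelling subunits, which are exchanged when neurons leave the cell cycle, had 1.40 (SE 0.42) for Actl6a and -2.91 (SE 0.35) for Actl6b, although Actl6a lost its call when both WT libraries were left out (log2 fold change 0.78, adjusted p = 0.133). Exceptions were alpha tubulin, where Tuba1a was higher in fibroblasts too (1.51), and the thymosins, where Tmsb4x was (3.26). Neither Fxr1 nor Fmr1 passed.

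**Figure D4:**
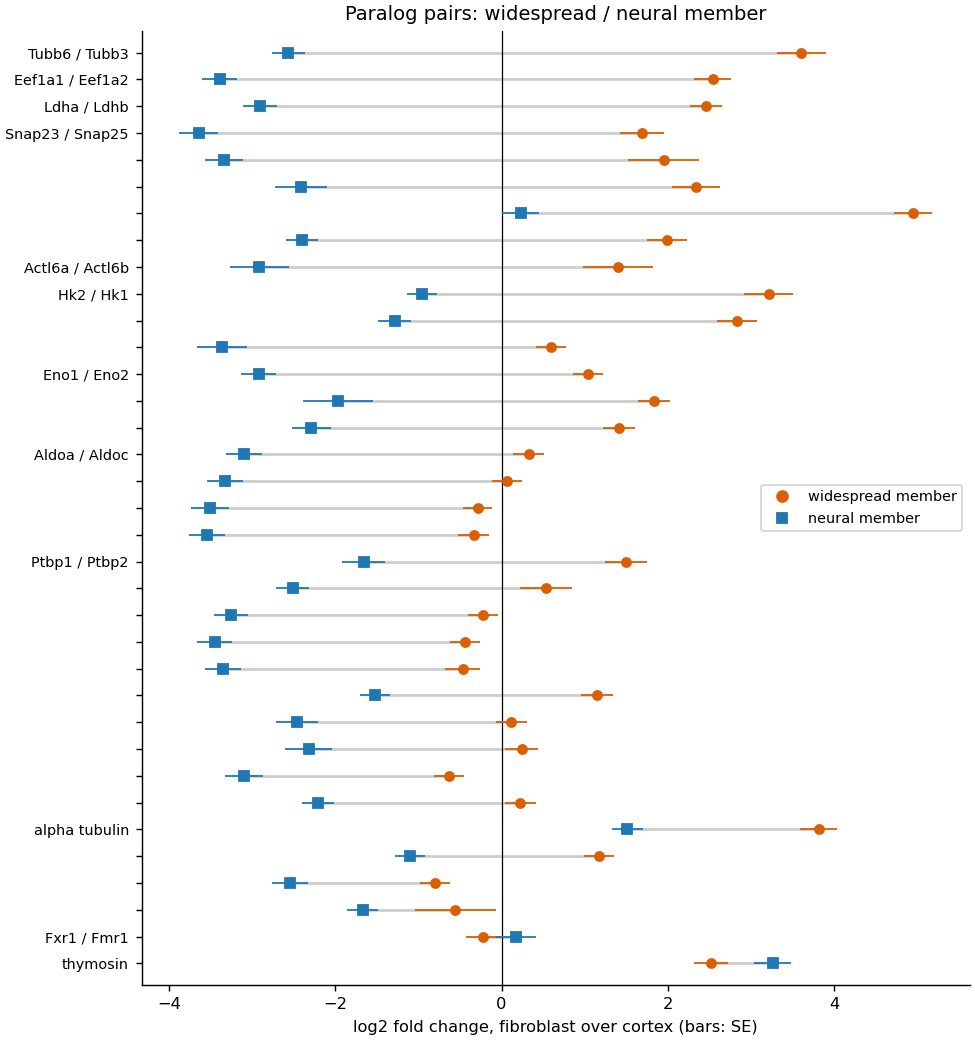
Log2 fold change, fibroblast over cortex, of the widespread (orange circles) and neural (blue squares) member of 35 paralog pairs, with SE bars, ordered by the difference between the members, with names at 12 pairs. The neural member lies to the left in 33 pairs, from the beta tubulins at the top to the thymosins at the bottom, where the order is turned.

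Immediate early genes were called in both directions. Of 26 tested, 18 were higher in fibroblasts and 7 were lower, Egr1 not passing. The shares were 69.2% higher and 26.9% lower, against 34.3 and 34.1% of all genes tested. The lower ones were Egr3, Egr4, Arc, Npas4, Nr4a1, Nr4a2 and Nr4a3. Without the fibroblast Het library Nr4a1 did not pass (adjusted p = 0.127) and Egr1 did, in the direction of fibroblasts (adjusted p = 0.0278). Npas4, an activity-induced factor of neurons, had 7.34, 5.08 and 4.13 CPM in fibroblasts and 31.3, 30.7 and 31.97 CPM in cortex (log2 fold change -2.32, SE 0.42, adjusted p = 1.49e-05), and Arc, a synaptic protein, 49.7, 31.4 and 45.5 CPM in fibroblasts and 409.7, 277 and 302 CPM in cortex (log2 fold change -2.83, SE 0.20, adjusted p = 2.84e-13). Zfp36, which destabilises inflammatory mRNAs, had 263, 254 and 569 CPM in fibroblasts and 4.58, 7.67 and 4.15 CPM in cortex (log2 fold change 6.24, SE 0.29, adjusted p = 3.49e-17). Klf2, a Krüppel-like factor, had 233, 160.4 and 319.6 CPM in fibroblasts and 12.97, 12.5 and 18.3 CPM in cortex (log2 fold change 4.15, SE 0.23, adjusted p = 9.00e-16).

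Imprinted and growth factor genes were divided as well. Of 25 imprinted genes, 6 were higher (H19, Plagl1, Grb10, Dlk1, Sgce and Igf2r) and 16 were lower. The baseline for this and the following lists was 34.3% higher and 34.1% lower, the shares of all genes tested. Peg3, a paternally expressed zinc finger gene, had 99.4, 60.5 and 149 CPM in fibroblasts and 785, 949 and 925 CPM in cortex (log2 fold change -3.05, SE 0.23, adjusted p = 5.89e-13). Of 12 genes of the IGF axis, 7 were higher and 5 lower (58.3 and 41.7%). Igfbp4, an IGF binding protein, had 3767, 1739.5 and 1959 CPM in fibroblasts and 66.4, 57.2 and 49.8 CPM in cortex (log2 fold change 5.50, SE 0.25, adjusted p = 1.36e-17), while the receptors Igf1r and Insr were lower at -0.84 and -0.97. Of 22 genes of TGF-beta and BMP signalling, 15 were higher and Bmpr2 and Smad7 lower (68.2 and 9.09%). Smad7, an inhibitor of the pathway, did not pass without the fibroblast Het (adjusted p = 0.0603), the fibroblast Hom (0.129) or the cortex WT library (0.0775). Tgfb1, the ligand, had 202, 204 and 242 CPM in fibroblasts and 16.8, 4.88 and 9.13 CPM in cortex (log2 fold change 4.60, SE 0.27, adjusted p = 3.66e-15), and its receptor Tgfbr2 159, 189 and 186 CPM in fibroblasts and 22.1, 16.03 and 13.7 CPM in cortex (log2 fold change 3.54, SE 0.24, adjusted p = 6.39e-14).

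Mitochondrially encoded mRNAs were lower in fibroblasts or did not pass. Of 12 mitochondrially encoded mRNAs tested, 6 were lower in fibroblasts and none was higher, against 34.1% lower and 34.3% higher among all genes tested, with sums of 8326, 10195 and 6208 CPM in fibroblasts and 12318, 19521 and 18643 CPM in cortex. Within the WT, Het and Hom pairs their medians were 0.01, -0.76 and -1.33, a difference between pairs that has no replicate check. mt-Co1, a cytochrome oxidase subunit, had 1648, 2400.4 and 1637 CPM in fibroblasts and 3988, 5469 and 5410.4 CPM in cortex (log2 fold change -1.24, SE 0.22, adjusted p = 1.02e-05). Of 33 nuclear respiratory chain genes, 15 were higher and 6 lower (45.5% higher and 18.2% lower). Of 19 genes of cholesterol synthesis and uptake, 10 were higher and 1 was lower (52.6% higher and 5.26% lower). Sqle, squalene epoxidase, had 75.8, 96.1 and 60.6 CPM in fibroblasts and 39.7, 46.00 and 51.1 CPM in cortex (log2 fold change 0.91, SE 0.23, adjusted p = 0.00100).

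The enzymes behind the mark itself were measured too. RNA m5C is laid down by NSUN family methyltransferases and DNMT2, read by ALYREF and YBX1, and oxidised by TET enzymes. Of 13 such genes tested, Nop2, Nsun2, Nsun4, Alyref and Ybx1 were higher in fibroblasts, and Nsun7, Tet1, Tet2 and Tet3 were lower. These shares (38.5% higher and 30.8% lower) are close to those of all genes tested (34.3 and 34.1%). Nsun2, the main writer on mRNA and transfer RNA, had 119, 98.4 and 90.9 CPM in fibroblasts and 64.9, 61.3 and 53.97 CPM in cortex (log2 fold change 0.92, SE 0.20, adjusted p = 2.20e-04). Ybx1, a reader, had 347, 441 and 405 CPM in fibroblasts and 89.3, 75.98 and 75.97 CPM in cortex (log2 fold change 2.46, SE 0.19, adjusted p = 2.44e-12). Alyref, the nuclear export reader, had 93.7, 93.4 and 93.7 CPM in fibroblasts and 37.4, 30.7 and 42.8 CPM in cortex (log2 fold change 1.50, SE 0.23, adjusted p = 8.84e-07). Tet2, which oxidises 5-methylcytosine, had 24.5, 29.1 and 20.7 CPM in fibroblasts and 124, 129.6 and 115 CPM in cortex (log2 fold change -2.14, SE 0.23, adjusted p = 2.00e-09). These are differences in RNA recovered and say nothing of enzyme activity.

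DNA methylation genes were called in shares close to those of all genes, 7 of 16 being lower and 5 higher (31.2% higher and 43.8% lower, against 34.3% higher and 34.1% lower among all genes tested). Dnmt1, the mutated gene (chromosome 9, 20907209 to 20959888, minus strand), had 599.9, 396 and 694 CPM in fibroblasts and 1629.8, 1162 and 1114 CPM in cortex (log2 fold change -1.08, SE 0.20, adjusted p = 2.38e-05), the fibroblast libraries lying under the cortex ones in every genotype. With WT library 1 in place of library 2, the log2 fold change was 0.14 (adjusted p = 0.854), a reversal of sign that rests on which WT library was used. Dnmt3a, a de novo methyltransferase, had 52.2, 66.5 and 96.4 CPM in fibroblasts and 199.9, 267 and 254 CPM in cortex (log2 fold change -1.63, SE 0.19, adjusted p = 1.33e-08). Uhrf1, the partner that brings Dnmt1 to replicating DNA, had 43.2, 36.05 and 39.95 CPM in fibroblasts and 3.05, 1.39 and 1.66 CPM in cortex (log2 fold change 4.43, SE 0.46, adjusted p = 8.99e-10).

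Fold changes were graded by transcript length. With 12193 tested genes split into 5 equal groups by their longest GENCODE M21 transcript, the median log2 fold change was 1.03 in the shortest group (up to 2184 bases), then 0.42, -0.01 and -0.37, and -0.90 in the longest (from 5676 bases). The shortest group had pair medians of 0.97, 0.97 and 0.98 in WT, Het and Hom, and the longest -0.87, -0.80 and -0.97. Transcripts under 1000 bases had a median of 1.73, and 1.59 without ribosomal protein genes. By GC content the medians ran from -0.26 in the lowest of 5 groups to 0.25 in the highest. Length also goes with kind of gene, the median length being 1100 bases in ribosomal protein genes, 8217 in voltage-gated channels and 4692 in fibroblast markers, and its part in the list results was not tested.

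Noncoding RNAs lay mostly on the cortex side. Of 126 long intergenic noncoding RNAs, 22 were higher in fibroblasts and 85 lower (median -1.83), and of 71 antisense RNAs 6 were higher and 53 lower (median -2.26). Among all genes tested 34.3% were higher and 34.1% lower. No source used here gives the strand setting of the counting, so reads of an antisense RNA cannot be told apart from those of its partner. Snhg11, a host of small nucleolar RNAs, had 183, 115 and 192 CPM in fibroblasts and 1766, 2336 and 2328 CPM in cortex (log2 fold change -3.59, SE 0.23, adjusted p = 2.99e-14). Miat, a nuclear RNA of neurons, had 37.5, 28.7 and 70.3 CPM in fibroblasts and 443, 408 and 413 CPM in cortex (log2 fold change -3.18, SE 0.23, adjusted p = 2.36e-13). Neat1, the scaffold of nuclear paraspeckles, was higher in fibroblasts at 1.86 (adjusted p = 3.38e-10). Of 30 clustered protocadherins, adhesion proteins of neurons whose genes share exons, 19 were lower (63.3%) and none was higher.

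The input libraries gave little on the fibroblast side. The title of 1 library per tissue says input, and its antibody label says IgG. The fibroblast one held 228852 gene counts, 58.4% of them in Lars2, Gm42418, Gm26917 and Gm10800. Its fibroblast markers summed to 953 CPM (95% Poisson interval 830.3 to 1088, counting error only) and its glutamatergic genes to 1769.7 CPM (1602 to 1951), so that brain genes exceeded fibroblast markers in a library labelled fibroblast. The cortex input held 8576 CPM of glutamatergic genes, against 10303, 9498 and 10078 CPM in cortex m5C RIP. Its ribosomal protein genes summed to 5339 CPM, against 5676, 5947 and 5999 CPM. Its mitochondrially encoded mRNAs summed to 9009.7 CPM, under all 3 cortex m5C libraries (12318, 19521 and 18643 CPM). Of 7747 called genes with at least 20 input counts, 58.2% (95% exact interval 57.1 to 59.3%) had the same sign between the inputs as between the m5C libraries. The fibroblast input detected only 6006 genes, so part of the 7747 had no counts in it. For that part the sign rests on missing counts in a shallow library, so the share cannot be told apart from an effect of depth. The interval treats genes of 1 pair of libraries as independent. With 1 input per tissue these values compare 2 libraries and not the tissues.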

How the data were processed

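The m5C RIP libraries of tail fibroblasts (3) and cortex (3), and 1 input library per tissue, were analysed from the authors' deposited tables of counts per gene. Per the submitters' processing notes, Trim Galore 0.4.1, HISAT2 and featureCounts were used with mm10, while no source used here gives the annotation or the strand setting, and per the labels' protocols both rRNA depletion and polyA enrichment were used for precipitated RNA. Entries that name no gene were dropped. In the 5 compared tables that hold them, 3.79 to 7.76% of reads fell in genes and 79.3 to 89.5% were not aligned, and the WT fibroblast table holds none. Gene positions came from GENCODE M21 (30464 symbols matched).

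Counts were tested with edgeR 4.0.16 (R 4.3.3): genes were kept by filterByExpr by tissue (minimum count 10, total 15), scaled by TMM and fitted by quasi-likelihood with genotype as a block, with Benjamini-Hochberg adjustment over the 12275 genes kept and a threshold of 0.05. The common biological coefficient of variation was 0.179 with 2 residual degrees of freedom. Intervals and floors (3 counts per library) cover counting error only. The code was tested on simulated data.

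The members, gene lists, paralog pairs and tests were chosen with earlier results of these data known. Genes named are, per direction, the 12 largest called differences with at least 5 CPM on average, no overlap and no placeholder name, the 8 with most counts per tissue, up to 4 called members of each of 48 lists by p, both members of the paralog pairs, and Dnmt1 with Lars2, Gm42418, Gm26917 and Gm10800. Members named as exceptions within a list were singled out after their values were seen. Some genes that this rule names are not reported here. In all, 19 alternatives were run, with another normalization, filter, tool (DESeq2 1.42.0), model, set of libraries or null hypothesis.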

Additional observations from a re-analysis of the deposited data

How the results depend on the processing

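Across the 19 alternatives, 3540 to 4470 genes were called higher in fibroblasts and 3506 to 4557 lower, apart from the test against a 2-fold change, which called 2589 and 2497. With each library left out in turn, fitted without genotype, the counts were 4074 to 4470 higher and 3964 to 4328 lower. The genotype numbers do not pair the libraries: deviations of the WT, Het and Hom pairs correlated at 0.03, 0.06 and -0.01, and without the replicate block 4290 and 4274 genes were called. DESeq2 shared 7309 calls of the same sign with the reported fit. Scaling by total counts moved the median of all genes to -0.13, and with no filter it was 0.69. Of the list counts, 743 stayed within 1.5 times the reported one and 17 did not. With at least 20 counts in each library of 1 tissue, calls were 1 of the posterior Hox, 16 proliferation, 3 endothelial, 2 choroid and 10 protocadherin genes. After thinning to equal depth they were 5 posterior Hox, 2 choroid and 9 protocadherin genes, and with no filter 29 protocadherins. The 2-fold test left 2 mitochondrially encoded, 7 respiratory chain, 3 glycolysis, 3 cholesterol, 2 RNA m5C, 3 DNA methylation and 10 protocadherin genes, and 10 opposite paralog pairs. Leaving out both WT libraries left 6 cholesterol genes. Fewer genes or counts enter the stricter filter and the thinning, and for the other shifts the cause was not tested. Dnmt1 turned to 0.14 with WT fibroblast library 1. Of 277 named genes called, 238 kept their call in every alternative and 39 lost it in at least 1. Of 760 list medians, 132 moved by more than the SD of the 3 genotype pairs, the largest shift being that of the posterior Hox genes, to 7.44 after thinning. The sign changed in 10 list medians. That of the pericyte and mural genes, for example, went from 0.12 to -0.52 after thinning. Depth limits the lowest levels, 3 counts standing for 1.25 to 4.13 CPM across the 6 libraries.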
